A study of Mus musculus with 4 samples.

Results

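H3K27me3, the histone mark that Polycomb repressive complex 2 lays on silent genes, was described here over the genes of the ephrin, semaphorin, plexin, Slit, Robo and netrin families in mouse germinal center B cells. The members were the RefSeq protein-coding genes whose symbol is Epha, Ephb, Efna, Efnb, Plxna, Plxnb, Plxnc, Plxnd, Nrp, Robo, Slit, Ntn or Unc5 with a digit or a letter from a to d, or Sema with a digit, and they numbered 69 of 21887 genes. They comprised 14 Eph receptor genes, 8 ephrin genes, 20 semaphorin genes, 11 plexin and neuropilin genes, 7 Slit and Robo genes and 8 netrin and Unc5 genes. Unc50 also met the rule by its letters, although it encodes no guidance receptor. The rule used gene symbols and no measured value, but it was chosen with earlier results of these data known.

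Kdm6b, whose product removes methyl groups from H3K27, was knocked out in B cells of the mice behind 2 libraries (KO), and the other 2 came from wild-type mice (WT). The assay was CUT&Tag, where an antibody steers a transposase to the marked chromatin. All were C57BL/6 mice given sheep red blood cells, challenged again on day 5 and analysed on day 12, and the sorted cells were splenic germinal center B cells, which the series title calls pre-plasma. No source used here gives the age or sex of the mice, the driver of the knockout or the exons it removes. A library pools many cells, so the mark in some of the cells and a weaker mark in all of them cannot be told apart.

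Eph receptors are receptor tyrosine kinases that meet ephrins on neighbouring cells, and signals run into both cells. Semaphorins act through plexins, with neuropilins as co-receptors for the secreted class, Slits act through Robo receptors, and netrins through Dcc and Unc5 receptors. These families are best known for steering axons and vessels, but some members act in the germinal center: ephrin B1 on germinal center B cells restrains follicular helper T cells, and plexin B2 on the B cells meets semaphorin 4C on those T cells. Many developmental genes have CpG-rich promoters, which are common sites of Polycomb binding.

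Each library had its own list of 80639 to 90417 peaks, which covered 144 Mb in KO library 1, 236 Mb in KO library 2, 213 Mb in WT library 1 and 101.4 Mb in WT library 2. The covered length thus differed more within each genotype than between them, and read depth is unknown. Library numbers were taken as names only, and how far covered length enters each difference was not tested. All p-values rest on 2 libraries per genotype. Those of single genes, from limma, use a spread estimate that borrows from all genes tested. Among markers of B and germinal center B cells, the starts of Pax5, Bcl6, S1pr2 and Mef2b had 0% covered in all 4 libraries, and that of Cd79a reached 25.2% in KO library 2. The T cell receptor genes Cd3d, Cd3e and Cd3g had at least 25% of the start covered in every library. Cd8a had 0% in KO library 1 and was above that level in the other 3. Starts at 25% or more in all 4 libraries numbered 1 of 3 natural killer, 1 of 2 myeloid and 1 of 3 erythroid genes with a known strand. These were Eomes, Lyz2 and Tal1, and the share of all genes was 20.8%. Kdr, the only listed endothelial gene with a known strand, also reached 25% in all 4. The natural killer genes Ncr1 and Klrb1c had 0% in all 4. Without a known strand, Cd14, Csf1r and Cdh5 had a gene-end window at 25% or more in all 4, against 24.7% of all genes. Adgre1 did not, and the endothelial gene Pecam1 had 0% in its body and both end windows in all 4. A map of a repressive mark does not show expression, so these shares are no direct check of the sort or of the genotype.

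Most guidance genes carried the mark at their start in every library. A start was called marked where peaks covered at least 25% of the 4000 bp window reaching 2000 bp to each side of it, and the strand needed to place it was known for 60 members and for 17492 of all genes. The start here is the 5′ end of the gene span, and listed transcription starts can lie inside that span. Marked starts numbered 43 of 60 in KO library 1, 46 in KO library 2, 43 in WT library 1 and 37 in WT library 2, against 29.5%, 41.9%, 36.9% and 22.9% of all genes in the same order of libraries. In all 4 libraries together, 36 members (60%) were marked, against 20.8% of all genes, and 14 were marked in no library, against 53.6% of all genes. The median start share over the members was 76.2% in KO library 1, 83.9% in KO library 2, 87.7% in WT library 1 and 55.0% in WT library 2, while that over all genes was 0%, 10.9%, 0% and 0%. WT library 2, the list with the least covered length, was lowest over the members.

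**Figure D1:**
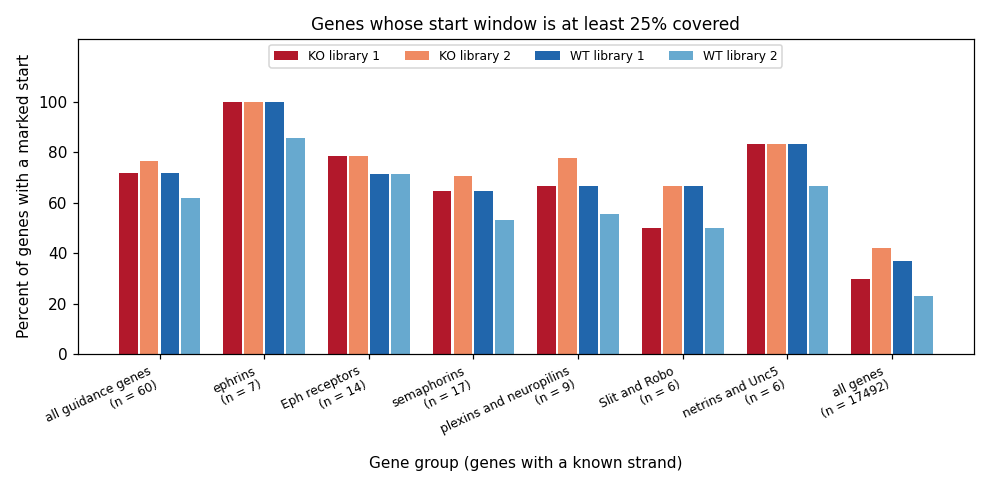
Percent of genes with a marked start, on the vertical axis, for each family, all 60 guidance genes and all 17492 genes with a known strand, with 1 bar per library. Guidance genes stood between 61.7% and 76.7% and all genes between 22.9% and 41.9%, and ephrins were the family with the highest shares.

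Coverage was highest just inside the 5′ end of the gene spans. Mean coverage over the 60 members was highest in the bin from 1000 to 1500 bp downstream of the start in all 4 libraries, at 65.9% and 71.2% in KO libraries 1 and 2 and at 71.8% and 60.2% in WT libraries 1 and 2. The 500 bp just before the start had 65.2% and 65.5% in KO and 66.0% and 52.5% in WT. Some listed starts also lie inside the span, such as those of Plxnb1 (1587 bp) and Slit2 (1864 bp), and their part in this position was not tested. Over all genes the highest bin lay within 500 bp of the start and reached 26.8% and 38.2% in KO, against 33.7% and 19.9% in WT. At 20 kb downstream the members had 19.6% and 27.9% in KO and 29.2% and 12.2% in WT. Gene ends were marked less widely, at 14 and 24 of 60 members in KO libraries 1 and 2 and at 22 and 13 in WT libraries 1 and 2, against 14% and 22.9% of all genes in KO and 19.4% and 10.2% in WT.

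**Figure D2:**
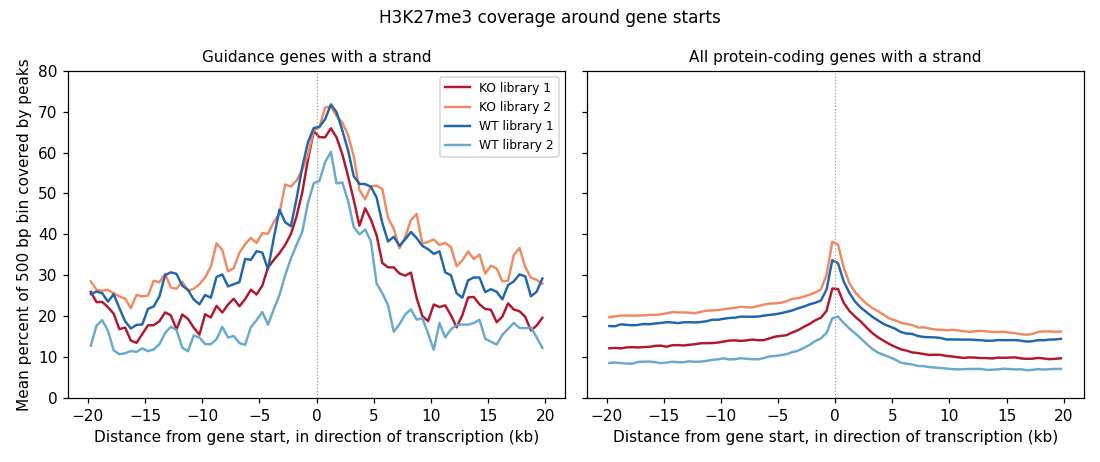
Mean percent of each 500 bp bin covered by peaks against the distance from the gene start in kb, for 60 guidance genes (left) and all 17492 genes with a strand (right), with 1 line per library. The guidance genes rise to between 60.2% and 71.8%, and the peak of all genes lies between 19.9% and 38.2%.

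Promoters of a pair of genes covered throughout their start in every library, Efna3 and Nrp2, and of a pair with no coverage there, Plxnb2 and Sema7a, are shown because both kinds are rich in CpG. Each runs from 250 bases before to 50 after a listed start, from RefSeq on GRCm38.p6, 5′ to 3′ on the gene's strand, with every CpG (CG, which reads the same on both strands) in capitals.
Efna3, chr3:89322890-89323189, minus strand: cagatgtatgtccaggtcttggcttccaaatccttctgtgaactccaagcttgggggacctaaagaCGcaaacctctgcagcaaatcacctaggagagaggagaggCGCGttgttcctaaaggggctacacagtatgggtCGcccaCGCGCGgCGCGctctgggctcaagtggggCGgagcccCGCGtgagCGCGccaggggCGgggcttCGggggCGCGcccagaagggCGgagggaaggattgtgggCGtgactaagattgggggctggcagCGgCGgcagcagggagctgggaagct
Nrp2, chr1:62703067-62703366, plus strand: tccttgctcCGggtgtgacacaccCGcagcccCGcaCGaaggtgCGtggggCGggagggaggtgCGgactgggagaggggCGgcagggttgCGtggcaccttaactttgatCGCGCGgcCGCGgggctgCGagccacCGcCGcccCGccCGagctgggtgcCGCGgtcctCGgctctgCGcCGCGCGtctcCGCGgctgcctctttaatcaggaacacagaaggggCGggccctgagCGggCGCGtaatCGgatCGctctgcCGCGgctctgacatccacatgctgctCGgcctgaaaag
Plxnb2, chr15:89180739-89181038, minus strand: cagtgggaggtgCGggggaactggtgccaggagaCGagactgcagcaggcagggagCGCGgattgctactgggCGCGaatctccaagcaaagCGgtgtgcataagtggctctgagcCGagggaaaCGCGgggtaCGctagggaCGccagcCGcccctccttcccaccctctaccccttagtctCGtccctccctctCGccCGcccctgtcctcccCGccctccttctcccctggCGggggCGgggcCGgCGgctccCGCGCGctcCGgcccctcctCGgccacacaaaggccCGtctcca
Sema7a, chr9:57939862-57940161, plus strand: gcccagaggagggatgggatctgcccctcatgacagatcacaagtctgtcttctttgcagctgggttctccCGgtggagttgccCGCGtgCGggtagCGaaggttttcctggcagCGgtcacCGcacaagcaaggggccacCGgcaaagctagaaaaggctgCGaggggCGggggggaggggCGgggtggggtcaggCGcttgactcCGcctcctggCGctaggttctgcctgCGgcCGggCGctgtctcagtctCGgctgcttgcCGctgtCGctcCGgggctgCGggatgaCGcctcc
They hold 22 CpGs at Efna3 and 37 at Nrp2, and 27 at Plxnb2 and 23 at Sema7a. The Plxnb2 start shown lies 1230 bp inside the end of the gene span, and the Sema7a start 516 bp inside it, and the 4000 bp around each of these listed starts also had 0% in all 4 libraries.

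Guidance genes with CpG-rich promoters were marked more often, but the CpG counts of marked and unmarked ones overlapped. They ran from 2 to 56 in members marked in all 4 libraries and from 2 to 31 in those marked in none. Whether CpG content accounts for the mark was not tested. Of 60 members, 33 had at least 20 CpGs in the 300 bases around the listed start nearest the end of the gene span (55.0%, against 36.1% of all genes), and 100% of members and 94.8% of all genes had at least 1. Among these 33 members, 26 were marked around that listed start in all 4 libraries, as were 13 of the 27 members with fewer CpGs. Over all genes those marked in all 4 made up 25.7% of promoters with at least 20 CpGs and 18% of the others. The median was 23 CpGs in the 39 members marked at the listed start in all 4 libraries and 18 in the 13 marked in none, and 17 and 8 in the same classes of all genes.

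Ephrins were the family with the highest share of marked starts in each library. Of 7 with a strand, 6 had a marked start in every library, and the remaining one was Efnb1. Efna3, a membrane-anchored ligand of EphA receptors (gene span chr3:89313899-89322939), was covered over 100% of its body and of its start in each of the 4 libraries. Efna4, its neighbour and a ligand of the same receptors, had 95.4% and 100% of its start covered in KO and 100% and 99.7% in WT. Efna2 had 92.6% and 91.0% in KO and 91.4% and 65.3% in WT, with 93.7% to 97.2% of its body covered. In the long gene Efna5, 100% of the start was covered in both KO libraries, against 100% and 87.4% in WT, but at most 1.83% of the body. Efnb2, the ligand that marks arteries, had 63.8% and 79.8% of its start covered in KO and 69.4% and 53.5% in WT. All of these starts were marked in every library, and WT library 2 was the lowest at Efna2, Efna5 and Efnb2.

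Efnb1, the ephrin of germinal center B cells, varied most among the ephrins. Its start was covered to 36.7% in KO library 1 and 49.5% in KO library 2, against 80.1% in WT library 1 and 0% in WT library 2, so the WT values lay on either side of both KO values. Its body had 1.76% and 2.92% in KO and 17.9% and 0% in WT. Efnb1 is on the X chromosome, as are Plxna3, with 0% of the start covered in all 4 libraries, and Plxnb3, with 0% and 53.9% in KO and 0% and 22.2% in WT. Efnb3, for which the strand was not known, had 75.4% and 100% of its body covered in KO and 100% and 65.9% in WT.

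Efna3 lay under some of the widest peaks of each list, and Efna4 under the same peaks in all but WT library 2. A single peak of 28542 bp in KO library 1, of 63329 bp in KO library 2 and of 44889 bp in WT library 1 met both genes and the neighbouring Adam15, and these peaks ranked 27, 6 and 12 by width in their lists. In WT library 2 the peak over Efna3 was 17904 bp wide, rank 26, and Efna4 had a separate peak of 5633 bp, rank 1386. Efna1 lies 32947 bp from Efna3 and had its own peaks, the widest 7392 and 11249 bp in KO and 7781 and 3616 bp in WT. The members of this locus therefore share peaks and are not independent.

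**Figure D3:**
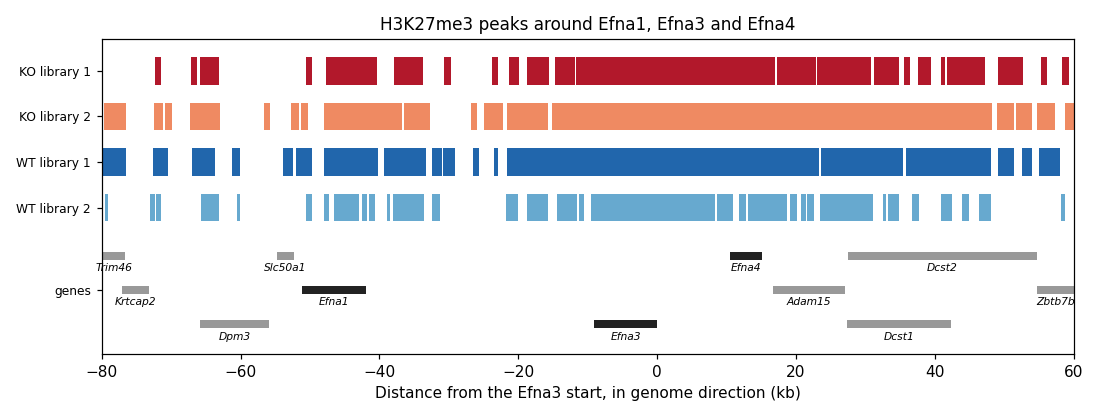
Peaks of each library (coloured blocks, 1 row per library) and protein-coding genes (black for ephrins, grey for others) against the distance in kb from the Efna3 start in genome direction. Peaks of 28542, 63329 and 44889 bp join Efna3 and Efna4 in KO libraries 1 and 2 and WT library 1, and the block over Efna3 in WT library 2 is 17904 bp wide.

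Eph receptor genes fell into a large marked group and a small unmarked one. Of 14, 9 were marked at the start in all 4 libraries, Ephb1 and Ephb6 in some, and Epha3, Epha5 and Epha6 in none. Epha2, a receptor of epithelial cells, was covered over 100% of its start in each library, and its widest peak measured 33340 and 42991 bp in KO and 27230 and 26015 bp in WT. The last of these was the widest peak of the whole WT library 2 list. Ephb4, the venous partner of ephrin B2, also had 100% of its start covered in all 4 libraries, with 15.3% and 37.4% of the body in KO and 31.6% and 18% in WT. Ephb3 had the highest mean body share of the family, at 61.5% and 88.1% in KO and 77.9% and 54.5% in WT. Ephb6, a kinase-dead receptor that is found on follicular helper T cells, had 36.4% and 41.4% of its start covered in KO and 13.4% and 29.4% in WT. The listed start of Ephb6 lies 1677 bp inside the gene span. Around it coverage was 74.3% and 59.05% in KO and 32.2% and 53.25% in WT, so the listed start was marked in all 4 libraries.

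Several long Eph receptor genes had little of the body covered, with or without a marked start. Epha7 had 65.8% and 54.1% of its start covered in KO and 56.7% and 53.5% in WT, and at most 2.06% of its 154438 bp body. Ephb2, of 188791 bp, had more, at 13.8% and 34.6% in KO and 26.4% and 11.4% in WT. Epha3, a gene of 320644 bp, had no covered base in its start, end or body in any library. Epha6, of 969479 bp, had 0% at the start in all 4 and at most 0.267% over the body.

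Semaphorin genes showed the same split, and those used by lymphocytes were on both sides of it. Of 17 with a strand, 9 were marked in all 4 libraries, 3 in some and 5 in none. Sema6c, a transmembrane semaphorin, had the highest mean body share of the family, with 100% covered in both KO libraries and 100% and 80.2% in WT. Sema4c, whose product meets plexin B2, was covered over 100% of the start in each library and over 93.5% and 99.2% of the body in KO and 97.6% and 74.4% in WT. Sema4a, a semaphorin that acts on T cells, had 73.1% and 84.8% of the start covered in KO and 96.0% and 52.7% in WT.

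The unmarked semaphorins were Sema3a, Sema3e, Sema4b, Sema4d and Sema7a. Sema4d encodes CD100, which lymphocytes carry and which binds Cd72 and plexin B1. Its start had 10.2% and 19.1% in KO, below the level called marked, and 0% in both WT libraries, and its body had 2.14% and 3.07% in KO and 0% and 0.494% in WT. The RefSeq starts listed for Sema4d lie 36995 to 54232 bp inside the gene span, and there at most 21.0% of a window was covered in KO and at most 13.4% in WT. Sema7a, a membrane-anchored semaphorin, had 0% at the start in all 4 libraries, and 0% and 23.7% of its body covered in KO against 0% and 1.53% in WT. Sema4b had 0% at the start in all 4, with 3.33% and 10.2% of the body in KO and 0% and 0.847% in WT. The secreted repellents Sema3a and Sema3e, genes of 478664 and 231414 bp, had no covered base in any library.

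Sema3b and Sema3f, secreted semaphorins for which the strand was not known, were covered broadly, at 65.2% and 97.5% of the body in KO and 86.2% and 40.8% in WT for Sema3b. Sema3f had 82.5% and 98.7% in KO and 98.7% and 76.3% in WT. Of the 9 members without a strand, 8 had at least 25% of a gene-end window covered in all 4 libraries, against 24.7% of all genes. Either end could count here, which is easier to meet than the start alone. The exception, Unc5d, had no covered base in either window or in its body.

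Plexin and neuropilin genes, which encode the semaphorin receptors, were marked at the start in all 4 libraries in 5 of 9 cases. Nrp1 and Nrp2 had 100% of the start covered in each library. The body of Nrp1, which regulatory T cells also use, had 5.37% and 11.3% covered in KO libraries, against 19.8% and 5.64% in WT libraries. Plxnd1, a receptor with a role in germinal center B cell positioning, had 94.8% and 94.2% of its start covered in KO and 100% and 64.3% in WT. Plxnc1, the Sema7a receptor, had 57.1% and 72.3% in KO and 76.6% and 56.4% in WT. Plxnb1, the Sema4d receptor, had the highest mean body share of the family, at 47.7% and 71.0% in KO and 87.4% and 28.9% in WT, with 57.3% and 53.9% of its start in KO and 55.8% and 15.6% in WT. Around its listed start, 1587 bp inside the gene span, coverage was 96.95% and 93.5% in KO and 95.4% and 54.1% in WT.

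Plxnb2, which germinal center B cells use, carried little mark. Its start and end windows had 0% in all 4 libraries, and its body had 4.08% and 4.86% in KO and 0% and 3.11% in WT. Around a second listed start, 8067 bp inside the gene span, KO library 2 had 32.1% and the other libraries 0%. Plxna1 had 82.5% and 78.6% of its high-coordinate end window covered in KO and 80.8% and 81.3% in WT, and Plxna4 had 86.8% and 87.1% in KO and 86.1% and 84.1% in WT. The strand of both was not known. Plxna4 also had the lowest mean body share of the family, 0.919% over the 4 libraries.

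Across the 16 members listed for roles in lymphocytes, the pattern was mixed. Of 14 with a strand, 7 were marked at the start in all 4 libraries and 4 in none, while of the 46 other members with a strand 29 were marked in all 4 and 10 in none. The 4 unmarked genes were Plxnb2, Sema4b, Sema4d and Sema7a. This list was chosen with earlier results of these data known.

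Slit and Robo genes held both extremes. Robo3, which governs axon crossing at the midline, had 100% of its start covered in each library and 91.2% and 97.6% of its body in KO against 97.8% and 84.8% in WT. Robo4, an endothelial receptor that lies 2021 bp away, had 87.7% and 100% of its body covered in KO and 90.6% and 53.3% in WT. In both KO libraries and in WT library 1 a single peak met both genes. Robo1 and Robo2, the canonical Slit receptors and the longest members at 1019974 and 1555468 bp, had no covered base in any library, nor around any listed start. The repellent Slit3 had 95.9% and 100% of its start covered in KO and 100% and 96.5% in WT, and Slit2 had 11.5% and 27.8% in KO and 29.0% and 0% in WT. The listed start of Slit2 lies 1864 bp inside the gene span. Around it coverage was 58.1% and 74.4% in KO and 75.6% and 28.2% in WT. Slit1, of unknown strand here, was covered inside its body, at 52.6% and 77.7% in KO and 68.8% and 31.1% in WT.

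Netrin and Unc5 genes were marked at the start in all 4 libraries in 4 of 6 cases. Ntn3 had 100% of its start covered in each library and 83.6% and 93.4% of its body in KO against 85.8% and 92.4% in WT. Ntn1, the netrin best known in axon guidance, had 100% and 94.4% of its high-coordinate end window covered in KO and 92.2% and 87.5% in WT. Among the repulsive netrin receptors, Unc5b had 100% and 92.7% of its start covered in KO and 100% in both WT libraries. Unc5c had 12.5% in KO library 1 and 0% in the other libraries, and 0% of its body in all 4. Unc50 had 19.4% of its start covered in KO library 1 and 0% in the other libraries.

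**Figure D4:**
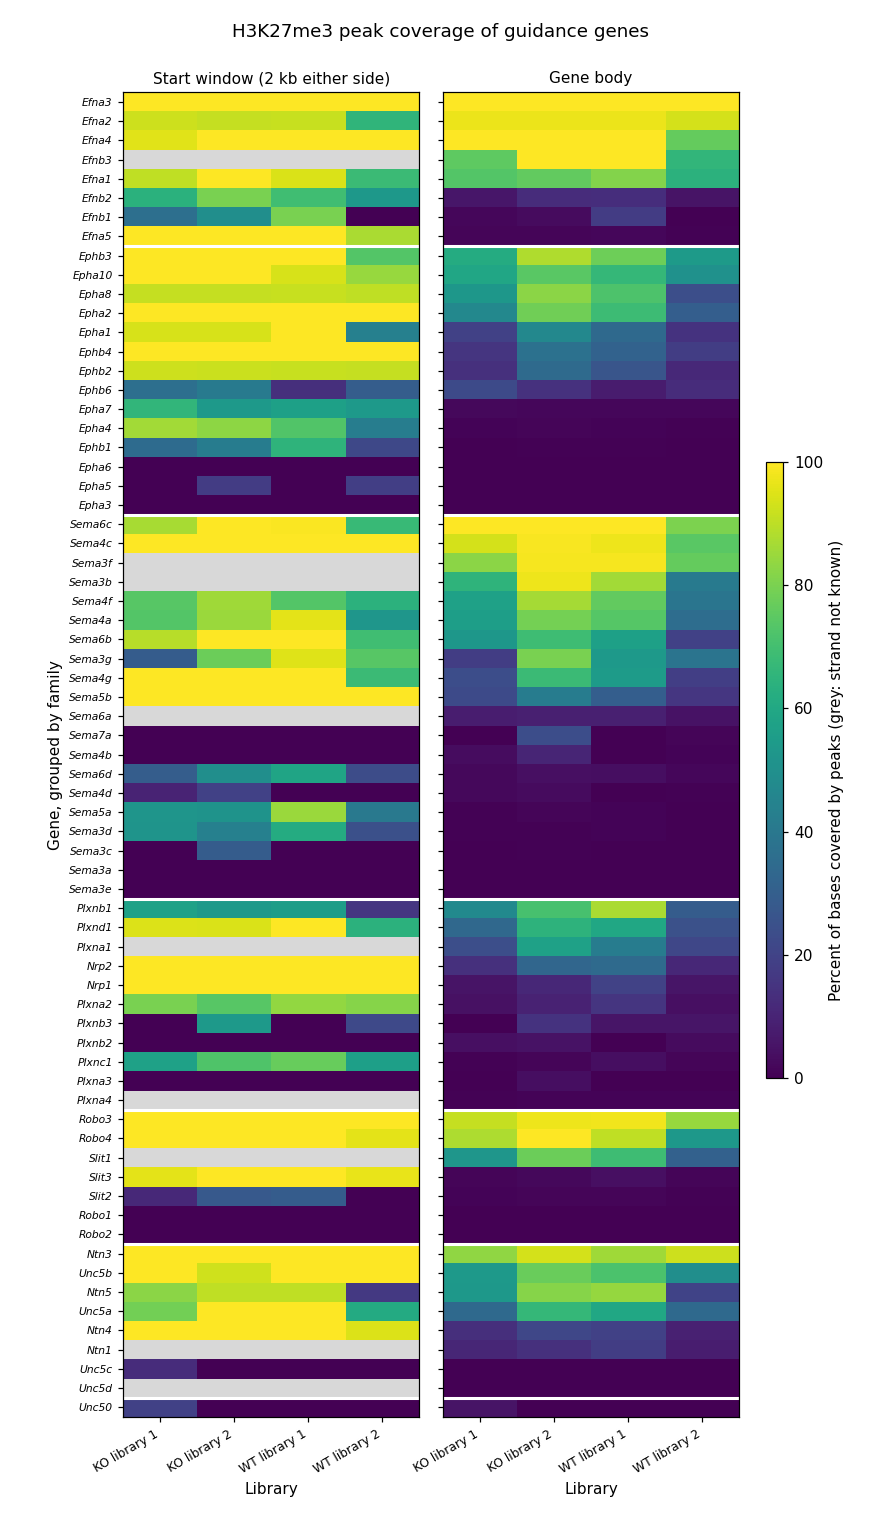
Percent of bases covered by peaks for each of the 69 members (rows, grouped by family and sorted by mean body share) in each library (columns), over the start window (left, grey where the strand is not known) and the gene body (right). Most starts are bright in all 4 columns, and long genes such as Efna5, Slit3 and Nrp1 have bright starts beside dark bodies.

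Body shares followed gene length. The members had a median length of 44008 bp, against 17169 bp for all genes. The 36 members of up to 50 kb had median body shares of 53.0% and 77.1% in KO and 70.3% and 29.5% in WT, against 0% and 1.04% in KO and 0% in both WT libraries for all genes of that length. The 33 longer members had 1.17% and 1.5% in KO and 1.41% and 0.734% in WT, against 0.614% and 1.17% in KO and 0.859% and 0.511% in WT for all longer genes. Their starts were still marked in 17 and 19 of 28 cases in KO and 18 and 14 in WT, against 39.0% and 49.2% in KO and 45.1% and 30.8% in WT of all longer genes. In these 28 long members the first 10 kb made up 2.83% of the body and held 39.0% and 26.2% of the covered bases in KO and 25.8% and 39.5% in WT.

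Signal maxima, which placed no member in the set, put most start peaks high in their lists. The peak with most overlap with the start had a maximum above that of a median 94.7% and 96.0% of the peaks in its KO list and 96.7% and 96.0% of those in its WT list. For all genes with a start peak these medians were 80.6% and 83.2% in KO and 82.7% and 77.5% in WT. Median widths of the members' start peaks were 4542 and 6460 bp in KO and 8250 and 3440 bp in WT, against 1880 and 2478 bp in KO and 2474 and 1373 bp in WT for all genes. Such signal values are the authors' own and were compared only within a list.

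No guidance gene differed between KO and WT by the test across all genes. With limma and Benjamini-Hochberg adjustment at 0.05, 0 of the 62 members with any body coverage were called higher and 0 lower in KO (smallest adjusted p = 1), where the same test called 0.0145% of 13805 genes higher and 0% lower. At the start, 0 of 50 members with any coverage were called in either direction (smallest limma adjusted p = 0.884), as were 0% of 10279 genes. At an unadjusted p under 0.05, limma had 0 members in either direction for both measures, against 1.56% of genes higher and 0.340% lower for bodies and 3.56% and 0.506% for starts. The 28 members with a covered end window also gave 0 calls in each direction, as did all 6222 genes (0% each way), and at an unadjusted p under 0.05 limma had 1 of them higher, against 2.91% of genes, and 0 lower, against 0.402%. The KO mean was above the WT mean at 50 of 62 member bodies, against 71.9% of genes, and at 31 of 50 starts, against 71% of genes. With 2 libraries per genotype these results do not show that the mark was the same.

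Patterns that set the genotypes fully apart were absent among the members or near their frequency over all genes. Marked starts shared by the KO libraries alone numbered 0 among members, against 1.09% of all genes, and those shared by the WT libraries alone also 0, against 0.189%. Both KO start shares lay above both WT shares at 6 of 50 members tested (Epha10, Epha4, Ephb2, Ephb6, Sema4d and Sema4f), against 14.6% of genes tested, and below them at 1 (Plxna2), against 2.41%. For gene bodies these counts were 5 of 62, namely Epha4, Ephb6, Plxnb2, Sema4b and Sema4d, against 12.3% of genes, and 0 against 2.75%. 

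The largest start differences rested in part on single libraries. Ntn5 had 82.7% and 90.5% in KO and 90.5% and 16.6% in WT, a difference of 33.0 points (SE 31.0, limma adjusted p = 0.884) that turned to -3.89 points without WT library 2. Epha4, a receptor for both ephrin classes, had 86.0% and 83.0% in KO and 72.9% and 42.5% in WT, with means of 84.5% ± 2.16 in KO and 57.7% ± 21.4 in WT (SD, n = 2 each, limma adjusted p = 0.884). Here the groups did not overlap. The Epha4 difference of 26.8 points was 11.6 without WT library 2, 41.9 without WT library 1 and 10.7 with 5000 bp to each side. For equal covered length, each list kept its peaks of highest maximum up to the length of the shortest list. The Epha4 difference was then 63.2, because the share in WT library 1 fell from 72.9% to 0% while the other libraries kept their values. Epha1 had 93.9% in both KO libraries and 100% and 43.7% in WT, and its difference of 22.1 points turned to -6.05 points without WT library 2. Plxnb1, at 19.9 points, turned to -0.188 points without that library. Ephb6, at 17.5 points (SE 7.86, limma adjusted p = 0.884), stayed positive with each library left out in turn. It was 3.47 points at equal covered length, where KO library 2 and WT library 1 fell to 0%. Sema4g had 100% in both KO libraries and 100% and 68.2% in WT, and its difference of 15.9 points was 0 without WT library 2.

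Among members with a lower KO mean, Sema3g had 29.3% and 77.5% in KO and 95.0% and 73.8% in WT, a difference of -31.0 points (SE 22.1, limma adjusted p = 0.884), and the groups overlapped. It was -6.94 without KO library 1, -55.1 without KO library 2, -14.9 at equal covered length and -3.84 with 5000 bp to each side. At equal covered length the Sema3g share fell to 14.85% in KO library 2 and to 0% in WT library 1. Sema5a had 52.2% and 51.4% in KO and 84.8% and 40.3% in WT, and its difference of -10.8 points turned to 11.5 without WT library 1. Plxna2, a semaphorin receptor, had 80% and 74.0% in KO and 83.7% and 82.0% in WT, a difference of -5.85 points (SE 4.48, limma adjusted p = 0.884) with no overlap. The Plxna2 difference was -2.84 without KO library 2, -8.86 without KO library 1 and -1.02 with 1000 bp to each side. Over its 197079 bp body Plxna2 had 4.67% and 9.44% in KO and 15.4% and 4.01% in WT, with 307 bp covered in both KO libraries alone and 1397 bp in both WT libraries alone. Ephb1 differed by -5.10 points and turned to 16.6 without WT library 1, Unc5b by -3.65 points (0 without KO library 2) and Efna4 by -2.15 points.

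**Figure D5:**
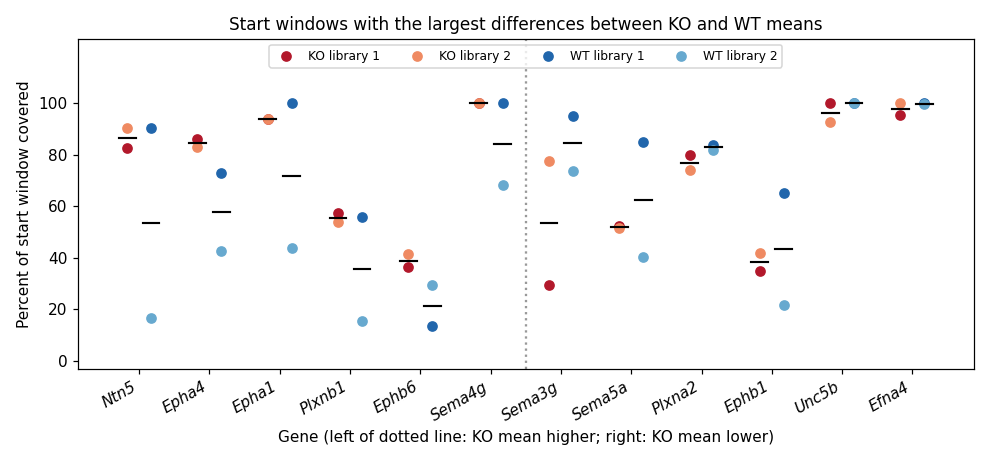
Percent of the start window covered (vertical axis) in each library (points) with the genotype means (black lines, n = 2), for the 6 members with the largest positive and the 6 with the largest negative difference of KO minus WT means. KO points stand left of WT points in each gene, and at Ntn5, Epha1, Plxnb1 and Sema4g the WT library 2 point stands below the other 3.

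Taken over all member bodies, peaks covered 4.99% and 7.87% of the bases in KO and 7.40% and 3.85% in WT. KO averaged 6.43% ± 2.04 and WT 5.62% ± 2.51 (SD of 2 libraries; two-sided exact permutation p = 0.667, where 0.33 is the smallest possible). For all gene bodies KO averaged 8.11% ± 2.75 and WT 6.80% ± 3.27. The median difference over the 69 members was 1.92 points with KO above WT, and 0.0366 points when every list was shortened to the same covered length. It was -0.302 points without WT library 2 and -0.0394 points without KO library 2, and the difference in covered bases also turned sign without either, to -0.970 and -0.635 points. Over the 62 members with coverage the median body difference was 2.66 points, against 1.53 points over all 13805 genes with coverage. Of the 1215362 member bases covered in any library, 341221 (28.1%) were covered in all 4, 34698 in the pair of KO libraries alone, and 14463 in the pair of WT libraries alone. The same base counts were not made over all genes, so they show no trait of the members. Over the genome, KO lists covered 189.9 Mb on average and WT lists 157.0 Mb. The order of the libraries by member coverage was that of their covered length over the genome.

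Many pathway genes outside these families also carried the mark at their start. Of 44 co-receptors, other ligands and downstream genes, 37 had a strand, and their starts were marked in 22 and 26 in KO and 26 and 18 in WT, with 18 marked in all 4 libraries. The shares of all genes were 29.5% and 41.9% in KO, 36.9% and 22.9% in WT and 20.8% in all 4. Cntn2, an axonal adhesion molecule gene, and Mical2, a plexin-linked oxidoreductase gene, had 100% of the start covered in each library. Cd72, the lymphocyte receptor for Sema4d, had 22.6% in KO library 2 and 0% elsewhere, and the kinase gene Abl1 and the exchange factor gene Vav2 had 0% in all 4. By limma, 0 of the 33 tested starts were called higher and 0 lower in KO.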

How the data were processed

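H3K27me3 was mapped by CUT&Tag in 4 libraries of sorted splenic germinal center B cells, 2 KO and 2 WT, grouped by the genotype label. Each deposited peak list gives positions, summed signal and highest signal (coverage), 1 list per library, with a scale the labels do not state. Per the submitters' processing notes the tools were SEACR, deepTools, SAMtools 1.11, Bowtie2 2.4.2 and Trim Galore 0.6.6 on mm10, with their roles, the peak threshold and any control not given in the sources used here. Depth is unknown, so no counting interval was computed.

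Covered shares of gene bodies and of windows reaching 2000 bp to each side of gene ends were computed on chromosomes 1 to 19, X and Y with RefSeq on GRCm38.p6 (the mm10 assembly) for 21887 protein-coding genes. Strand came from the RefSeq promoter table, which holds 79.9% of the genes. The plan had put the low-coordinate end in place of an unknown start. Since that end may be the 3′ end, genes without a strand were left out of start results, and the planned form was kept as an alternative. limma 3.58.1 in R 4.3.3 (lmFit, eBayes without trend, all genes with coverage in any library, two-sided, threshold 0.05 after Benjamini-Hochberg adjustment) compared KO with WT. The same fit was also run on simulated data. How many changes it finds at the spread of these libraries is not reported here. Other values came from Python 3.11.15 with numpy 2.4.6 and pandas 2.3.3, and figures from matplotlib 3.10.9.

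Members, lists, tests and alternatives were chosen with earlier results of these data known. Named genes were those with roles in lymphocytes, the highest and lowest body share of each family, the 6 largest start differences each way, and any member past the threshold or marked in 1 genotype alone. Others named served as examples chosen after their values were seen.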

Additional observations from a re-analysis of the deposited data

How the results depend on the processing

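Over all alternatives tried, 0 members passed limma for bodies or starts. These were other windows, equal covered length, the peaks at or above each list's median maximum, no filter, a trend, an arcsine square root scale, covered length as a covariate and each library left out. The smallest adjusted p of a member was 0.151 for starts, without KO library 1, and 0.232 for bodies, also without it. At an unadjusted p under 0.05, limma had at most 11 of 50 member starts, without WT library 1 (22%, against 16.3% of genes), and at most 4 of 61 member bodies, without KO library 1 (6.56%, against 10.9% of genes). The count of 36 members marked at the start in all 4 libraries ranged from 32 (5000 bp to each side, or a threshold of 50%) to 44 (either gene end, 69 members, against 24.7% of all genes), and was 33 at equal covered length. It was 39 with any listed start, an alternative chosen after seeing the data, as was leaving out Unc50. With the low-coordinate end in place of an unknown start, as first planned, it was 38. Leaving genes without a strand out of the main count departed from that plan. Leaving out single libraries gave 36 to 42.

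Members marked in the KO libraries alone turned from 0 to 1 with a threshold of 10% (Sema4d) and to 1 at equal covered length (Sema6d). Without single libraries they ranged from 0 to 6, the highest without WT library 1, where a single WT library had to be unmarked. Members marked in the WT libraries alone stayed at 0 in every setting. Leaving out a library put the median body difference between -0.302 points (WT library 2 out) and 4.46 points (WT library 1 out), and at -0.0394 with KO library 2 out. For the covered percent of all member bodies the same bounds were -0.970 and 2.58, with -0.635 for KO library 2 out. Without single libraries, start differences ranged from -3.89 to 69.99 points at Ntn5, from -6.05 to 50.2 at Epha1 and from -0.188 to 39.9 at Plxnb1, lowest without WT library 2 and highest without WT library 1. They ranged from -33.0 to 11.5 at Sema5a and from -26.8 to 16.6 at Ephb1, lowest without WT library 2 and highest without WT library 1, and from -4.45 to 0.150 at Efna4, positive without KO library 1. With 5000 bp to each side the difference was 15.2 at Sema5a and 5.83 at Efna4. The cause was not tested. No paired analysis was made because the labels do not state any pairing of KO with WT libraries.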
